A study of Mus musculus with 7 samples.

Results

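Aminoacyl-tRNA synthetases are the enzymes that join each amino acid to its transfer RNA (tRNA) before the ribosome can use it. All 36 genes named for this family were found by symbol among the 35641 genes of the deposited table, 20 for enzymes of the cytosol and 16 for enzymes of mitochondria, whose symbols end in 2. RNA was sequenced from lung cells sorted as CD45+ CD11b+ Ly6Clo Ly6G+, a gate meant for neutrophils, from female C57BL6 mice of 2 groups named HF (4 mice) and LF (3 mice). What the names stand for is not in the labels, which give no diet, age or treatment either, while the study's title speaks of obesity. The question put to these genes is whether their transcripts differ between the 2 groups.

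The libraries labelled LF went against the sort: they carried little of the transcripts that mark neutrophils. All 13 tested neutrophil markers were higher in HF, and their summed level was 421842.5 to 569441.2 normalized counts in the HF libraries and 8139.8 to 8703.1 in the libraries labelled LF. The summed level of 15 genes of monocytes and interstitial macrophages was 39815.0 to 53346.0 in HF and 175480.1 to 186766.4 in the libraries labelled LF, with 11 of 15 lower in HF and 0 higher. Of 13 genes of dendritic cells and MHC class II, 9 were lower in HF and 1 higher, and of 9 tested platelet genes 6 were higher in HF. Of all genes tested, 28.7% were lower in HF, 26.2% higher and 55.0% called in either direction. None of the 8 T cell, 7 NK cell or 5 tested B cell genes passed the test. Of 8 tested alveolar macrophage genes 1 was higher in HF and 3 were lower. Marco, at 0 in every HF library, was too low to be tested, so no difference is read from it. Of 6 tested epithelial genes 2 were higher and 1 lower, and of 5 tested endothelial genes 2 were lower. No difference in cell type is read from the alveolar macrophage, epithelial or endothelial counts, which rest on few genes. Every difference below is therefore one between HF libraries rich in neutrophil transcripts and libraries labelled LF rich in monocyte transcripts, and the part of cell type in it was not tested. In bulk RNA, fewer cells of a type and less RNA per cell cannot be told apart.

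Cytosolic synthetases charge the tRNAs that serve the ribosomes translating nuclear-encoded messages, and 8 of them (Eprs, Iars, Lars, Mars, Qars, Rars, Kars and Dars) sit together in the multisynthetase complex. Mitochondrial synthetases are encoded in the nucleus, imported, and charge the tRNAs used to make the few proteins of the mitochondrial genome. Gars and Kars serve both compartments from 1 gene each. Several cytosolic synthetase genes are known targets of ATF4, a transcription factor whose translation increases when the initiation factor eIF2 is phosphorylated, for instance when uncharged tRNA accumulates. Mature neutrophils are known as cells with little protein synthesis and few active mitochondria.

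Promoters of the family (250 bases before to 50 after the annotated start, RefSeq, GRCm38.p6) were searched on both strands for 3 short motifs. The motifs were TGATGNAA (the C/EBP-ATF element, bound by ATF4 with a C/EBP partner), CACGTG (the E-box of MYC and related factors) and CCGGAAG (an ETS element). Of 36 genes 27 matched the promoter table, 13 cytosolic and 14 mitochondrial, and Cars, Hars, Lars, Nars, Rars, Vars, Wars, Hars2 and Pars2 had no entry. The 5 promoters with the C/EBP-ATF element are printed because other ATF4 target genes are described below, and the motif is in capitals. Each is on the build's strand given here: Aars at chr8:111033592-111033891 (+), Gars at chr6:55037751-55038050 (+), Iars at chr13:49681880-49682179 (+), Tars at chr15:11399609-11399908 (-) and Yars at chr4:129189653-129189952 (+).
Aars: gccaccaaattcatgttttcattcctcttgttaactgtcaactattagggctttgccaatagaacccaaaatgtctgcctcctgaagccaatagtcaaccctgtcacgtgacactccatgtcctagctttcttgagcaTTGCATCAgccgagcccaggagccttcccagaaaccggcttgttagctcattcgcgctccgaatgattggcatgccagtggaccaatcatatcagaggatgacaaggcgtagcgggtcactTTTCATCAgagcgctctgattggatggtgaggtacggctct
Gars: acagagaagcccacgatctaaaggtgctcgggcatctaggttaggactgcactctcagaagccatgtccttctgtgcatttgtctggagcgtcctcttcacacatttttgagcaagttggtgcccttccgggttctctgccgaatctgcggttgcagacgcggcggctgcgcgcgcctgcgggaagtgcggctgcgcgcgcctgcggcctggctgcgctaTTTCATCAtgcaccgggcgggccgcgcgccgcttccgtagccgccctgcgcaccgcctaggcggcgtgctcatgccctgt
Iars: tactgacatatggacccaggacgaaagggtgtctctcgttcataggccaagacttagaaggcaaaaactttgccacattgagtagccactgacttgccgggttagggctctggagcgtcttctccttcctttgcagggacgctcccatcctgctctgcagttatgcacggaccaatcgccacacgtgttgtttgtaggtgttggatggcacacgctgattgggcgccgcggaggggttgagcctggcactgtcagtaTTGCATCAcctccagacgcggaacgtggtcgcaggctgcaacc
Tars: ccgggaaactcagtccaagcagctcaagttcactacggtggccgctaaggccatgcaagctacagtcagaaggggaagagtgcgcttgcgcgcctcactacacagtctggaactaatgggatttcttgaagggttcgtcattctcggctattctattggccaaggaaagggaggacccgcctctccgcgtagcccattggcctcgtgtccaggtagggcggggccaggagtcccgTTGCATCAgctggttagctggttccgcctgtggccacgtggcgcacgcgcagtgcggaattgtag
Yars: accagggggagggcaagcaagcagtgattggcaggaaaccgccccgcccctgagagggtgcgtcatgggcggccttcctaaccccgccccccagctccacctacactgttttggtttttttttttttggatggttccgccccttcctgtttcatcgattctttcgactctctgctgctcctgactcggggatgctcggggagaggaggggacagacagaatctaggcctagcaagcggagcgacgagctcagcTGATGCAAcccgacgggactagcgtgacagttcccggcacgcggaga

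The C/EBP-ATF element stood in a promoter of 5 of 13 cytosolic genes (Aars, Gars, Iars, Tars and Yars) and 0 of 14 mitochondrial genes, against 4.51% of all 27025 genes in the table and 3.97% of its 32851 promoters. Aars2 had 2 promoters in the table, and the other 26 genes 1 each. Aars held it at 2 positions, from -112 to -105 and from 10 to 17, counted with 1 as the first transcribed base and no 0. The E-box stood in promoters of 4 cytosolic genes (Aars, Farsb, Iars and Tars), 1 mitochondrial gene (Ears2) and 8.09% of all genes (7.15% of promoters). The ETS element stood in those of 5 cytosolic genes (Farsa, Gars, Kars, Mars and Sars), 4 mitochondrial genes (Cars2, Mars2, Rars2 and Sars2) and 9.93% of all genes (8.86% of promoters). No match of 1 motif overlapped a match of another in these promoters. A match describes letters in a window, and factor binding was not measured. The motifs were chosen after the promoters were seen, so these shares are a description and not a test. The promoter of Ears2, the mitochondrial glutamyl enzyme with the lowest HF level per kilobase in the family, is printed as the 1 mitochondrial promoter with the E-box, in capitals, at chr7:122067037-122067336 (-).
Ears2: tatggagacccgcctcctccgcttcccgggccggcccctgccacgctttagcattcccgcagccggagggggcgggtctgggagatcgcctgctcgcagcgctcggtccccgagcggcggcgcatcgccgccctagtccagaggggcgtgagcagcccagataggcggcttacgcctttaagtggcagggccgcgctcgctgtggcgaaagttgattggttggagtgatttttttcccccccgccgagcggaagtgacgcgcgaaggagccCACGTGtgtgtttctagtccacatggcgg

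All 36 genes passed the filter, a mean of at least 10 normalized counts (reads divided by the library's size factor) over the 7 libraries. Differences are HF minus LF on log2(normalized count + 1), tested with limma over 14936 genes at an adjusted p of 0.05. Of 20 cytosolic genes, 15 were lower in HF, 1 (Cars) was higher and 4 (Mars, Nars, Qars and Sars) did not pass. That is 75.0% lower, beside 28.7% of all genes lower, 26.2% higher and 55.0% called in either direction. Of 16 mitochondrial genes, 10 (62.5%) were lower, 0 were higher and 6 (Aars2, Cars2, Fars2, Hars2, Lars2 and Mars2) did not pass. The groups did not overlap for 16 of 20 cytosolic and 12 of 16 mitochondrial genes, beside 62.2% of all genes. The median log2 difference was -1.36 for cytosolic genes and -2.84 for mitochondrial genes, against -0.16 for all genes tested. Both medians were also negative with equal library totals (-1.88 and -3.32), which moves the median of all genes by -0.51 to -0.67, and with quantile normalization (-1.12 and -2.58). With DESeq2 on recovered reads they were -1.31 and -1.84, beside 0.02 for all genes.

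Of the cytosolic genes lower in HF, 12 of 15 were called under every alternative setting, and of the mitochondrial genes 3 of 10 (Ears2, Rars2 and Vars2). Ears2, with a mean under 50, was not tested with the filter at 50. The mitochondrial count was 6 with edgeR on recovered reads. It was 6 without HF replicate 4, 4 without LF6, 3 without LF7 and 3 without LF8. The 2 alternatives with more calls among single omissions were those without HF replicate 1 and without HF replicate 3, each with 11.

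**Figure D1:**
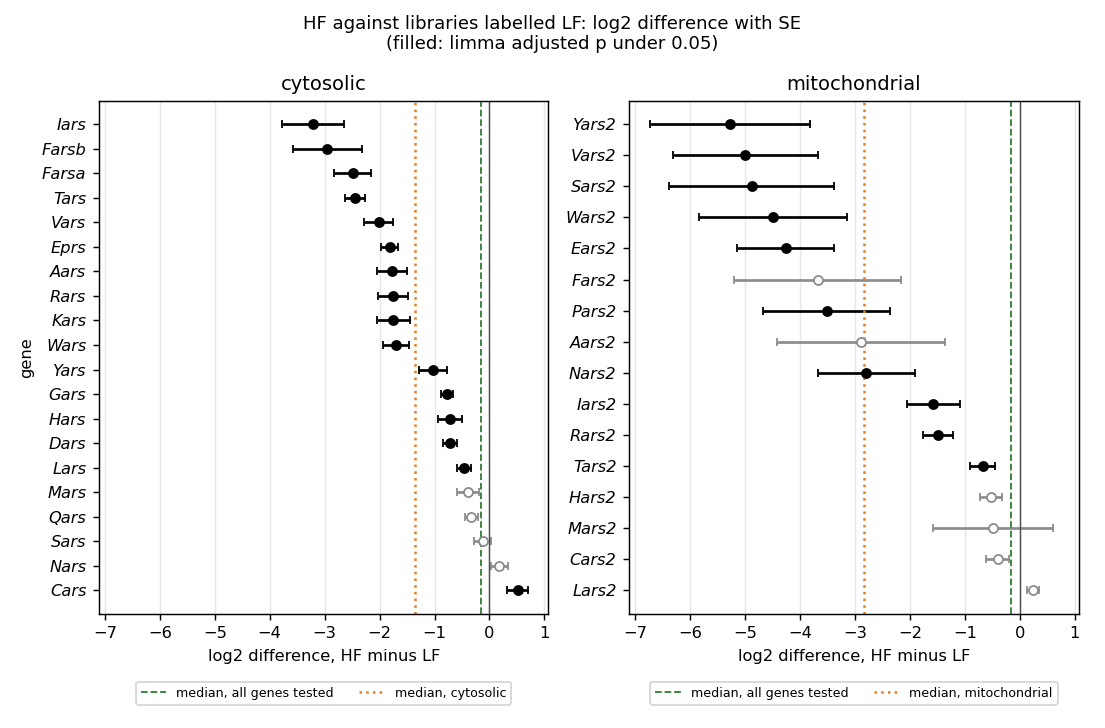
Log2 difference (HF minus LF, log2 of normalized count + 1) with its SE for the 20 cytosolic genes (left) and 16 mitochondrial genes (right), filled where the limma adjusted p was under 0.05. Dashed lines mark the median of all genes tested (-0.16) and dotted lines the class medians (-1.36 and -2.84); 18 cytosolic and 15 mitochondrial points lie below 0.

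Among the cytosolic enzymes of the multisynthetase complex, 6 of 8 were lower in HF and 0 higher, with a median log2 difference of -1.23. That is 75.0% lower, the same share as in the whole cytosolic class, beside 28.7% of all genes lower and 26.2% higher. Eprs, which encodes the fused enzyme for glutamate and proline, was at 373.5, 393.4, 342.0 and 483.6 normalized counts in HF replicates 1 to 4 and at 1419.1, 1289.7 and 1475.4 in LF6, LF7 and LF8. Every HF library lay below every library labelled LF. The means were 398.1 ± 60.8 (SD, n = 4) and 1394.7 ± 95.2 (SD, n = 3), a log2 difference of -1.82 ± 0.15 (SE, limma adjusted p = 2.73e-05).

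Kars, the lysyl enzyme of both compartments, was at 349.3, 135.0, 222.0 and 215.5 in HF and at 691.5, 737.2 and 777.4 in the libraries labelled LF. The groups did not overlap, and HF replicate 1 was the highest of HF. This came to a log2 difference of -1.75 ± 0.30 (SE, limma adjusted p = 0.00147).

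Iars, the isoleucyl enzyme, had the largest difference of the cytosolic class. It was at 95.7, 48.9, 118.8 and 336.1 in HF, with replicate 4 well above the others, and at 1168.8, 1241.6 and 912.4 in the libraries labelled LF, so that the groups did not overlap. Its log2 difference was -3.22 ± 0.56 (SE, limma adjusted p = 0.00173). In the GENCODE M21 annotation, 377 of 5273 stretches of 50 bases in Iars transcripts also occur in other genes, so a few of its reads could be shared with near-identical copies.

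Rars, the arginyl enzyme, and Dars, the aspartyl enzyme, were lower in HF by -1.76 and -0.71 on the log2 scale, without overlap. Lars, the leucyl enzyme that also senses leucine for the growth kinase mTORC1, was at 583.3, 671.1, 581.9 and 588.8 in HF and at 783.0, 831.8 and 893.2 in the libraries labelled LF. The groups did not overlap, but the gap was small, -0.46 ± 0.12 (SE, limma adjusted p = 0.0122). This call was lost without LF8 (limma adjusted p = 0.0647) and with quantile normalization (limma adjusted p = 0.058).

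Qars, the glutaminyl enzyme, was at 622.5, 668.6, 654.8 and 774.8 in HF and at 914.1, 838.5 and 806.2 in the libraries labelled LF. The groups did not overlap, yet the log2 difference of -0.33 ± 0.13 (SE) did not pass (limma adjusted p = 0.0546). Leaving out HF replicate 4 brought it past the threshold (limma adjusted p = 0.0234), as did equal library totals (0.00042), a filter at a mean of 50 (0.0449), edgeR with TMM (0.0407) and DESeq2 on recovered reads (0.0433). Mars, the methionyl enzyme, overlapped between groups (514.6 to 921.1 in HF, 811.4 to 934.6 in LF) and did not pass (log2 difference -0.39, limma adjusted p = 0.122), except with equal library totals (limma adjusted p = 0.00332) or when HF replicate 4 was left out (0.0192). Mars overlaps Ddit3 by 68 bases on the opposite strand, and Ddit3 was higher in HF.

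Of the 12 cytosolic genes outside the complex 9 were lower in HF and 1 higher, with a median of -1.36. Here too 75.0% were lower, so the share did not differ from that inside the complex. Of all genes 28.7% were lower and 26.2% higher. Gars, the glycyl enzyme of both compartments, was at 801.2, 835.7, 856.6 and 962.1 in HF and at 1541.9, 1413.6 and 1454.8 in the libraries labelled LF. It varied little within either group and the groups did not overlap. The means were 863.9 ± 69.3 (SD, n = 4) and 1470.1 ± 65.5 (SD, n = 3), a log2 difference of -0.77 ± 0.11 (SE, limma adjusted p = 0.000498).

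Wars, the tryptophanyl enzyme and a gene known to be induced by interferon gamma, was at 386.2, 226.3, 456.3 and 382.3 in HF and at 1090.9, 1073.5 and 1275.4 in the libraries labelled LF. No HF library reached any of the others, and the log2 difference was -1.70 ± 0.24 (SE, limma adjusted p = 0.000544). Of 14 tested genes that respond to interferon gamma, 6 were higher in HF and 6 lower (median -0.02), beside 26.2% and 28.7% of all genes. Irf1, an interferon-induced transcription factor, was higher in HF, with a mean of 11908.0 ± 961.8 against 3900.1 ± 330.7 normalized counts. Gbp3, a guanylate-binding protein, was lower, 511.0 ± 69.4 against 2285.7 ± 285.0. Irf8, a factor of monocyte and dendritic cell development, was lower too, 232.4 ± 77.2 against 5110.4 ± 590.3 (all SD, n = 4 and n = 3).

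The genes of the 2 subunits of the phenylalanyl enzyme differed by -2.49 (Farsa) and -2.95 (Farsb) on the log2 scale, both lower in HF without overlap. HF replicate 2 was the lowest for both, at 96.4 for Farsa and 24.4 for Farsb, and without it the Farsb difference was -2.32. Tars, the threonyl enzyme, had the smallest adjusted p of the family. Chosen here after its values were seen, it was at 193.7, 133.7, 153.6 and 164.2 in HF and at 780.0, 935.4 and 911.0 in the libraries labelled LF, far apart in every library, with a log2 difference of -2.44 ± 0.18 (SE, limma adjusted p = 1.56e-05). Vars (valyl), Aars (alanyl) and Yars (tyrosyl) were lower by -2.02, -1.77 and -1.03 without overlap. In GENCODE M21, 14.29% of the Aars exons overlap Exosc6 on the same strand and 9.47% of the Farsb exons overlap Sgpp2 on the opposite strand, so their reads cannot be fully told apart. Hars, the histidyl enzyme, was lower by -0.72 (limma adjusted p = 0.02) but not without LF6 (0.0669) or LF7 (0.0743). Quantile normalization ended the calls of Yars (limma adjusted p = 0.106) and Hars (0.133).

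Cars, the cysteinyl enzyme, was the 1 gene called higher in HF. It was at 544.1, 617.1, 411.5 and 611.9 in HF and at 414.3, 391.9 and 331.5 in the libraries labelled LF. HF replicate 3 lay just below LF6, so the groups overlapped. The log2 difference was 0.51 ± 0.19 (SE, limma adjusted p = 0.0482), and it was -0.01 with equal library totals. The call was lost without any 1 library other than HF replicate 3, with limma adjusted p of 0.0765, 0.0919 and 0.0941 without HF replicates 1, 2 and 4 and of 0.0795, 0.103 and 0.165 without LF6, LF7 and LF8.

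Sars, the seryl enzyme, had the smallest difference of the family. It was at 890.0, 957.8, 1055.1 and 701.7 in HF and at 964.3, 926.4 and 1029.5 in the libraries labelled LF, which lay inside the HF range, with a log2 difference of -0.13 ± 0.15 (SE, limma adjusted p = 0.511). With equal library totals it was -0.64 and passed (limma adjusted p = 0.0109). Nars, the asparaginyl enzyme, was at 2728.6, 2854.2, 3272.8 and 2039.7 in HF and at 2350.4, 2288.1 and 2488.4 in LF. Replicate 4 lay below and the other HF libraries above the libraries labelled LF. The log2 difference of 0.18 ± 0.15 (SE) did not pass (limma adjusted p = 0.349), passed without HF replicate 4 (0.028), and was -0.34 with equal library totals and -0.23 with quantile normalization.

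**Figure D2:**
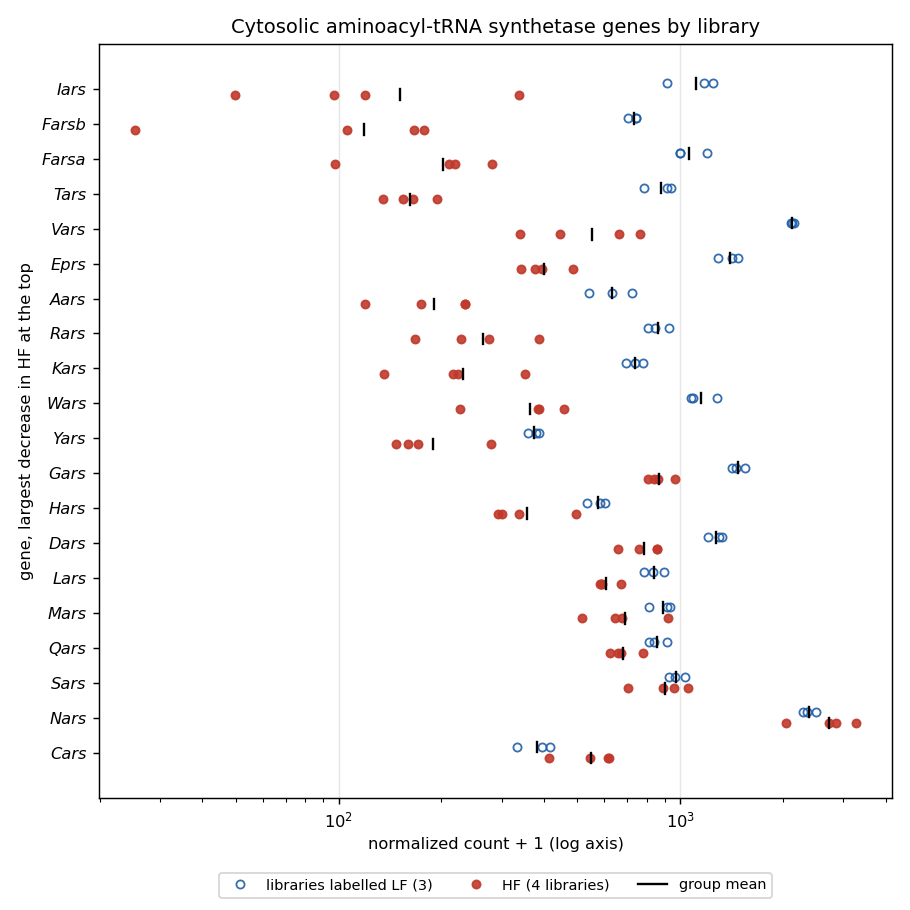
Normalized count + 1 (log axis) of each cytosolic synthetase gene in 4 HF libraries (filled) and 3 libraries labelled LF (open), with group means as bars, ordered by log2 difference. Iars spans 48.9 to 336.1 in HF against 912.4 to 1241.6 in LF at the top, while Sars, Nars and Cars at the bottom overlap.

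The mitochondrial class was lower in level and less even between HF libraries. The median HF coefficient of variation was 76.8% for mitochondrial and 25.5% for cytosolic genes, beside 7.07% and 6.55% in the libraries labelled LF. For 8 of 16 mitochondrial genes (Aars2, Ears2, Fars2, Pars2, Sars2, Vars2, Wars2 and Yars2) at least 1 HF library held 0 reads, against 0 of 20 cytosolic genes. No member was at 0 in a library labelled LF. HF replicates 1 to 4 had 2, 2, 7 and 1 mitochondrial members at 0. Replicate 3 also had the most genes at 0 among all genes tested, 11.3%, against 3.21% to 6.27% in the other HF libraries and 2.28% to 3.43% in the libraries labelled LF, and the part of this in the zeros of the members was not tested. Among genes of similar level in the libraries labelled LF (100 to 200 normalized counts), 17.7% of all tested genes had a 0 in HF, and 4 of 6 members. Between 200 and 400 it was 8.36% of all and 2 of 6 members. Below 100 it was 32.7% and 2 of 2, and between 400 and 800 it was 2.26% and 0 of 7. Genes were matched on LF level only, so zeros in HF were not told apart from a lower HF level.

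Because of these zeros, a log2 difference can exceed the ratio of the means, and both are given. Yars2, the tyrosyl enzyme of mitochondria, was at 30.0, 41.1, 0 and 0 in HF and at 218.8, 237.2 and 241.8 in the libraries labelled LF. The HF replicates split into a low and a zero pair, all far below the others. Its log2 difference was -5.28 ± 1.46 (SE, limma adjusted p = 0.0159), with a mean 13.1 times as high in LF. Without LF7 or LF8 the limma adjusted p was 0.0505 or 0.0509, and without HF replicate 3 or 2 the log2 difference was -4.42 or -6.22.

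Vars2, the valyl enzyme, was at 0, 0, 31.4 and 15.4 in HF and at 139.4, 169.7 and 148.6 in the libraries labelled LF, here with replicates 1 and 2 at 0. The log2 difference was -4.99 ± 1.32 (SE, limma adjusted p = 0.0129), with means of 11.7 and 152.5, and it ran from -5.91 without HF replicate 3 to -4.24 without HF replicate 1. Sars2, the seryl enzyme, was at 0, 41.1, 0 and 37.2 in HF and at 182.1, 192.9 and 182.9 in LF, so yet another combination of HF replicates was at 0. Its log2 difference was -4.88 ± 1.498 (SE, limma adjusted p = 0.0245) and the LF mean was 9.49 times as high, with limma adjusted p of 0.0683, 0.0707 and 0.0688 without LF6, LF7 and LF8 and log2 differences from -5.79 without HF replicate 2 to -4.00 without HF replicate 1. With edgeR the adjusted p of Sars2 was 0.0744.

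Wars2, the tryptophanyl enzyme, was at 39.2, 34.7, 0 and 1.28 in HF and at 187.3, 207.9 and 125.3 in the libraries labelled LF. Again no HF library reached the others, and the log2 difference was -4.50 ± 1.35 (SE, limma adjusted p = 0.0223), with an LF mean 9.23 times as high. The limma adjusted p was 0.0525 without HF replicate 4 and 0.0679, 0.0719 and 0.0546 without LF6, LF7 and LF8, and the log2 difference ran from -5.30 without HF replicate 1 to -3.52 without HF replicate 3. With edgeR the adjusted p was 0.0583.

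Ears2, the glutamyl enzyme, was at 11.5, 2.57, 0 and 5.13 in HF and at 65.9, 96.8 and 71.9 in LF, from 16 reads over the 4 HF libraries and 322 over the 3 others. All HF libraries were low, and the LF mean was 16.3 times as high. The log2 difference was -4.26 ± 0.89 (SE, limma adjusted p = 0.00426), and from -4.80 without HF replicate 1 to -3.59 without HF replicate 3. Pars2, the prolyl enzyme, was at 13.8, 0, 0 and 10.3 in HF and at 38.2, 44.3 and 38.4 in LF, with 20 reads over the HF libraries. Its log2 difference of -3.52 ± 1.15 (SE) passed (limma adjusted p = 0.0317), but not without HF replicates 2 or 3 (0.06 and 0.0531) or without LF6, LF7 or LF8 (0.0906, 0.099 and 0.0918). It was also lost with no filter (limma adjusted p = 0.0647), with DESeq2 (adjusted p = 0.0972) and with edgeR (adjusted p = 0.119, or 0.116 after TMM), and the log2 difference ran from -4.20 without HF replicate 1 to -2.90 without HF replicate 2.

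Fars2, the phenylalanyl enzyme, was at 79.5, 87.4, 0 and 82.1 in HF and at 354.4, 363.3 and 347.3 in the libraries labelled LF. The groups did not overlap, and HF replicate 3 stood alone at 0. The log2 difference of -3.68 ± 1.52 (SE) did not pass (limma adjusted p = 0.0709). Without HF replicate 3 it was -2.08 and passed (limma adjusted p = 0.000133), and it passed with DESeq2 (adjusted p = 0.0253), a pseudocount of 5 (limma adjusted p = 0.0267), equal library totals (0.0392) and array weights (0.0146). Aars2, the alanyl enzyme, was likewise at 0 in HF replicate 3 and at 39.9 to 125.7 in the other HF libraries, against 180.6 to 207.9 in LF. It did not pass with that library (log2 difference -2.89, limma adjusted p = 0.143) and passed without it (-1.32, 0.0354). Exons of other genes on the opposite strand cover 8.72% of Fars2 (Nrn1), 8.52% of Vars2 (Gm20483) and 5.83% of Cars2 (Naxd).

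Nars2, the asparaginyl enzyme, was at 72.6, 5.14, 32.5 and 6.41 in HF and at 124.4, 123.1 and 130.8 in the libraries labelled LF. Every HF library was lower, over a wide range. The log2 difference was -2.79 ± 0.88 (SE, limma adjusted p = 0.0271), with limma adjusted p of 0.0577 and 0.0578 without HF replicates 2 and 4, of 0.0756, 0.0756 and 0.079 without LF6, LF7 and LF8, of 0.0683 with quantile normalization, and an adjusted p of 0.0748 with edgeR. Without HF replicate 1 the log2 difference was -3.46. Rars2 (arginyl) was lower by -1.49 (limma adjusted p = 0.00236). Iars2 (isoleucyl) was lower by -1.58 (0.0241) but not without HF replicate 4 (0.0579), LF6 (0.0695), LF7 (0.0651) or LF8 (0.0658), and 22.89% of its exons overlap Rab3gap2 on the opposite strand. Tars2 (threonyl) was lower by -0.68 (0.0328) but not without HF replicate 4 (0.0524), LF6 (0.128), LF7 (0.0726) or LF8 (0.0793), or with no filter (0.0692) or quantile normalization (0.544).

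Cars2, the cysteinyl enzyme of mitochondria, was at 283.6, 182.6, 190.6 and 242.5 in HF and at 273.5, 293.5 and 313.7 in LF. HF replicate 1 lay inside the LF range, and the log2 difference of -0.40 ± 0.21 (SE) did not pass (limma adjusted p = 0.143). It was 0.14 with quantile normalization, and -0.92 with equal library totals, where it passed (limma adjusted p = 0.00633). Hars2, the histidyl enzyme, ranged from 359.2 to 585.6 in HF and from 549.3 to 744.7 in LF and did not pass (log2 difference -0.52, limma adjusted p = 0.058). A filter at a mean of 50 (limma adjusted p = 0.0472), equal library totals (0.00337) and the omission of HF replicate 1 (0.0155) each brought it past the threshold. Hars and Hars2 overlap by 195 bases on opposite strands. Mars2, the methionyl enzyme, was at 9.22 in HF replicate 1 and at 195.4 to 281.4 in the others, against 132.1 to 179.5 in LF. Its HF mean was the higher of the 2 (181.8 against 151.8) while its log2 difference was -0.49 ± 1.09 (SE, limma adjusted p = 0.723), and 0.65 without HF replicate 1.

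Lars2, the mitochondrial leucyl enzyme, stood apart from its class in level. It was at 5634.8, 6618.7, 6951.5 and 7818.7 in HF and at 5977.4, 5832.1 and 5326.9 in the libraries labelled LF. HF replicate 1 lay inside the LF range and the other HF libraries above it. The means were 6755.9 ± 902.5 (SD, n = 4) and 5712.1 ± 341.5 (SD, n = 3). The log2 difference of 0.23 ± 0.11 (SE) did not pass (limma adjusted p = 0.106). It passed without HF replicate 1 (0.0192), and was -0.29 with equal library totals (0.0308) and -0.56 with quantile normalization (0.000555), so its direction depended on the scaling.

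**Figure D3:**
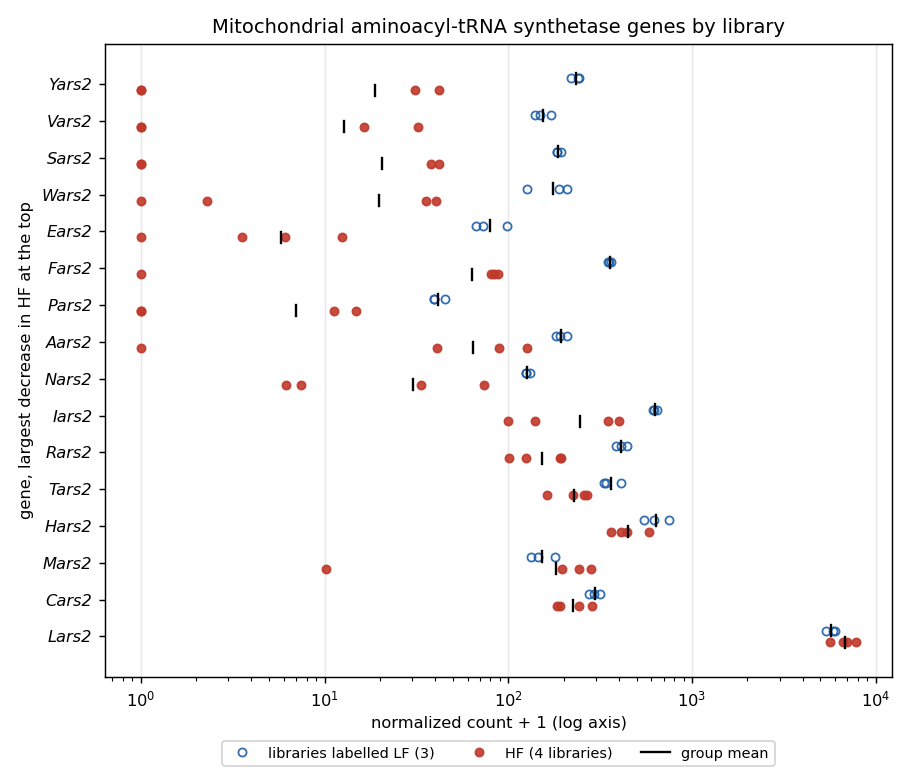
Normalized count + 1 (log axis, so a value of 0 is drawn at 1) of each mitochondrial synthetase gene in 4 HF libraries (filled) and 3 libraries labelled LF (open), with group means as bars. The 8 genes with an HF library at 0 lie at the top, and Lars2, at 5326.9 to 7818.7 in all libraries, at the bottom.

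Levels between genes were compared per kilobase of merged exons in GENCODE M21. In HF the highest were Nars (625.5 ± 117.6 normalized counts per kilobase, SD, n = 4) and Lars2 (609.2 ± 81.4), which lay within each other's spread, followed by Gars (277.0 ± 22.2). Mars (201.2 ± 49.6), Dars (179.1 ± 21.4) and Sars (175.2 ± 29.0) came next, again within their spread. The lowest were Vars2 (2.14 ± 2.75), Pars2 (1.95 ± 2.30) and Ears2 (0.933 ± 0.96), whose SDs were as large as or close to their means. In the libraries labelled LF, Nars (545.5 ± 23.5), Lars2 (515.1 ± 30.8, n = 3) and Gars (471.3) were again the highest, followed by Vars (379.0 ± 3.79) and Wars (332.6 ± 32.5). Pars2 and Mars2 (13.4 ± 2.18), which lay within each other's spread, were the lowest there.

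The 2 classes were then set against each other within each library, where a common scaling of the library largely cancels, though not for genes at or near 0. The mean log2 level of the cytosolic genes exceeded that of the mitochondrial genes by 2.74, 2.65, 4.13 and 3.06 in HF replicates 1 to 4 and by 1.81, 1.78 and 1.89 in LF6, LF7 and LF8. Every HF library had the wider gap, and replicate 3, with 7 members at 0, the widest. The means were 3.15 ± 0.68 (SD, n = 4) and 1.83 ± 0.06 (SD, n = 3), 1.32 apart, and 0.99 apart without HF replicate 3. Without Gars and Kars, which serve both compartments, the groups were 1.31 apart. The log2 ratio of summed counts went the other way, 0.38 ± 0.13 in HF and 1.09 ± 0.09 in LF (SD, n = 4 and n = 3 here and in the next values). Lars2 supplied most of the mitochondrial sum, and without it the log2 ratio was 2.69 ± 0.19 in HF and 2.36 ± 0.07 in LF. The summed cytosolic level was 10959.8 ± 465.5 in HF and 20659.0 ± 290.8 in LF, and the mitochondrial sum without Lars2 was 1714.1 ± 280.5 and 4015.4 ± 143.6.

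There were 17 pairs of a cytosolic and a mitochondrial gene for the same amino acid. Eprs is paired with both Ears2 and Pars2, and Fars2 with both Farsa and Farsb. The mitochondrial gene had the more negative log2 difference in 12 and the cytosolic gene in 5. Ratios of the HF mean to the LF mean gave the opposite order for Aars/Aars2 (0.301 and 0.33), Farsb/Fars2 (0.162 and 0.175) and Mars/Mars2 (0.777 and 1.2). The within-library differences of 7 pairs did not overlap between the groups. The share without overlap among gene pairs at large was not computed, and among single genes it was 62.2%. The count of pairs is therefore a description only. In 5 of these (Cars/Cars2, Eprs/Ears2, Nars/Nars2, Sars/Sars2 and Yars/Yars2) the cytosolic gene was relatively higher in HF. For Sars/Sars2 the gap was 9.80, 4.51, 10.04 and 4.20 in HF and 2.40, 2.26 and 2.49 in LF, so a cytosolic gene near the same level in both groups was paired with a mitochondrial gene that was low in HF. The gap for Nars/Nars2 was 5.21 to 8.86 in HF and 4.21 to 4.24 in LF.

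In the other 2 pairs without overlap the cytosolic gene was relatively lower in HF. For Tars/Tars2 the gap was -0.46, -0.27, -0.74 and -0.45 in HF and 0.93, 1.50 and 1.42 in LF, which turned the order of the 2 counts. For Lars/Lars2 it was -3.27 to -3.73 in HF and -2.57 to -2.93 in LF, the 1 pair in which the mitochondrial gene had far more counts in every library. Iars/Iars2 overlapped through HF replicate 4 alone, at 1.27, against values below 0 in the other HF libraries and 0.56 to 1.02 in LF.

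**Figure D4:**
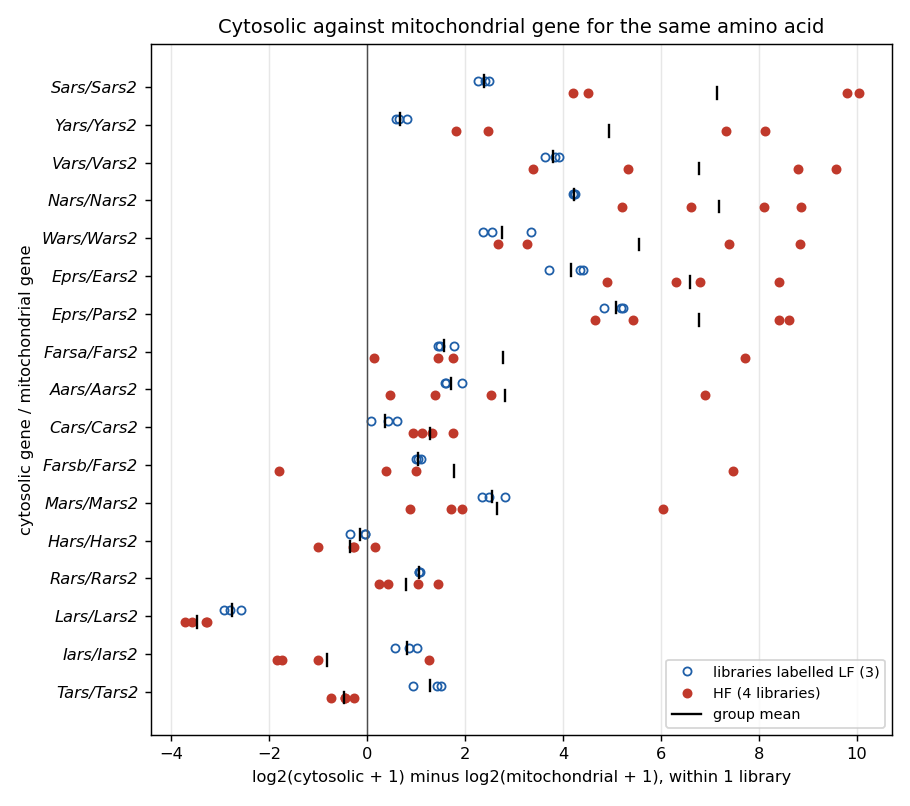
For each of 17 pairs, log2(cytosolic + 1) minus log2(mitochondrial + 1) within 1 library, in 4 HF libraries (filled) and 3 libraries labelled LF (open), with group means as bars. Points to the right have more cytosolic counts; Sars/Sars2 at the top runs from 4.20 to 10.04 in HF against 2.26 to 2.49 in LF, and Tars/Tars2 at the bottom lies below 0 in HF and above 0 in LF.

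The partners of the enzymes were described from lists chosen with earlier results of these data known. Of the 3 scaffold genes of the multisynthetase complex, 2 were lower in HF (1 with quantile normalization) and 0 higher. Of all genes tested, 28.7% were lower and 26.2% higher. For Aimp1 the HF mean was 162.5 ± 23.4 and the LF mean 311.7 ± 16.7 (SD, n = 4 and n = 3). For Eef1e1 they were 46.7 ± 27.3 and 348.4 ± 20.2, and Aimp2 did not pass (log2 difference -0.96, limma adjusted p = 0.105).

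Of 4 tested genes for synthetase-like proteins and tRNA quality control, 2 were higher and 1 lower, beside 26.2% and 28.7% of all genes. Dtd1, which removes D-amino acids from tRNA, was at 627.3 to 801.2 in HF and at 108.6 to 117.9 in LF6, LF7 and LF8, well apart (log2 difference 2.62 ± 0.17, SE, limma adjusted p = 5.99e-06). Prorsd1 was higher by 0.98, and Dtd2, a related deacylase, was lower by -1.63.

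The mitochondrial side of the charging and translation machinery held no gene higher in HF, beside 26.2% of all genes higher and 28.7% lower. Of 9 genes for mitochondrial tRNA charging and modification, 4 were lower (7 with equal library totals; median -1.90), among them Gatb (-2.59), Gatc (-2.15) and Trmu (-1.90). Gatb and Gatc encode subunits of the amidotransferase that makes glutaminyl-tRNA in mitochondria, which have no glutaminyl synthetase of their own. Trnt1, which adds the CCA end to tRNAs of both compartments, did not pass (log2 difference -0.14). Of 9 tested mitochondrial translation factors, 6 were lower (median -2.48), with the elongation factors Tufm at -2.48 and Gfm1 at -2.77 and the recycling factor Mrrf at -2.08. The count was 3 without LF6, without LF7 and without LF8. Gfm2 did not pass (-0.81, limma adjusted p = 0.0942).

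On the cytosolic side, 6 of 9 elongation and termination genes were lower and 1 higher (median -0.96), beside 28.7% and 26.2% of all genes. Eef1a1, which delivers charged tRNA to the ribosome, had a mean of 6003.4 ± 588.9 in HF against 15301.3 ± 858.4 in LF (SD, n = 4 and n = 3). Eef2, the translocation factor, had 3284.3 ± 164.3 against 7181.6 ± 174.1. The 1 gene higher was Eef2k, the kinase that inactivates eEF2, at 1876.7, 1805.1, 2342.2 and 1531.7 in HF and at 71.2, 114.9 and 102.1 in the libraries labelled LF. No library of 1 group came near the other, with a log2 difference of 4.30 ± 0.22 (SE, limma adjusted p = 1.63e-06).

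Of 12 genes of eIF2, its kinases, phosphatase subunits and exchange factor, 2 were higher and 7 lower (median -0.90). The shares of all genes were 26.2% higher and 28.7% lower. Eif2ak3, the kinase PERK of the endoplasmic reticulum, was at 2368.1 to 2603.0 in HF and at 763.0 to 848.3 in LF (log2 difference 1.64). The eIF2 subunit Eif2s1 was lower by -1.94 and the exchange factor subunit Eif2b5 by -1.64. Of the 2 regulatory subunits of the eIF2 phosphatase, Ppp1r15a was higher in HF (0.89, limma adjusted p = 0.00507) and Ppp1r15b, with the highest mean of the list over all 7 libraries, did not pass (-0.20). With equal library totals or quantile normalization 1 gene of the list was higher, and without LF6 or without LF8 4 were lower.

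The ATF4 genes outside the family were called in both directions, 7 of 18 tested higher in HF and 6 lower (median -0.03), beside 26.2% and 28.7% of all genes. Atf4 itself was at 2275.6, 2429.9, 2482.4 and 2160.3 in HF and at 1416.1, 1321.2 and 1298.0 in the libraries labelled LF, without overlap (log2 difference 0.80 ± 0.09, SE, limma adjusted p = 0.000155). Chac1, a glutathione-degrading enzyme, was at 783.0 to 973.0 in HF, while the 3 libraries labelled LF held 1 read in all. Ddit3, which encodes the factor CHOP, was at 1340.7 to 1439.6 in HF and at 130.8 to 192.2 in LF. Sesn2, a leucine sensor, was at 2594.5 to 3243.9 and 407.6 to 480.2.

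Asns, which makes asparagine, was at 552.2, 583.7, 235.5 and 513.1 in HF and at 25.5, 39.8 and 40.4 in the libraries labelled LF (log2 difference 3.65, limma adjusted p = 9.41e-05). The other enzymes of amino acid and folate metabolism in the list went in different directions. Mthfd2 (-1.95), Aldh18a1 (-3.06) and Psat1 (-3.85) were lower and Gpt2 (1.11) was higher, while Phgdh (0.07), Psph (-0.99) and Shmt2 (-3.00) did not pass. Psat1 was at 78.4, 3.86, 46.0 and 0 in HF and at 162.2 to 174.6 in LF, just past the threshold (limma adjusted p = 0.0492). Cebpb did not pass either (-0.14). The 5 synthetase genes with the C/EBP-ATF element were all lower in HF, at -0.77 (Gars), -1.03 (Yars), -1.77 (Aars), -2.44 (Tars) and -3.22 (Iars). Of all 20 cytosolic genes 75.0% were lower, and of all genes tested 28.7%. Among cytosolic genes with a promoter entry but no such element, Dars, Eprs, Farsa, Farsb and Kars were lower too. Mars, Qars and Sars did not pass. Cars and Nars, with positive differences, had no promoter entry. The 18 tested genes of the ATF4 list were split, 7 higher and 6 lower in HF (6 and 4 without LF6 or without LF7). Atf4, Ddit3, Chac1, Sesn2 and Asns were among the higher, and Mthfd2, Aldh18a1 and Psat1 among the lower. Direction was the same with equal library totals and quantile normalization for these 5 synthetase genes.

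**Figure D5:**
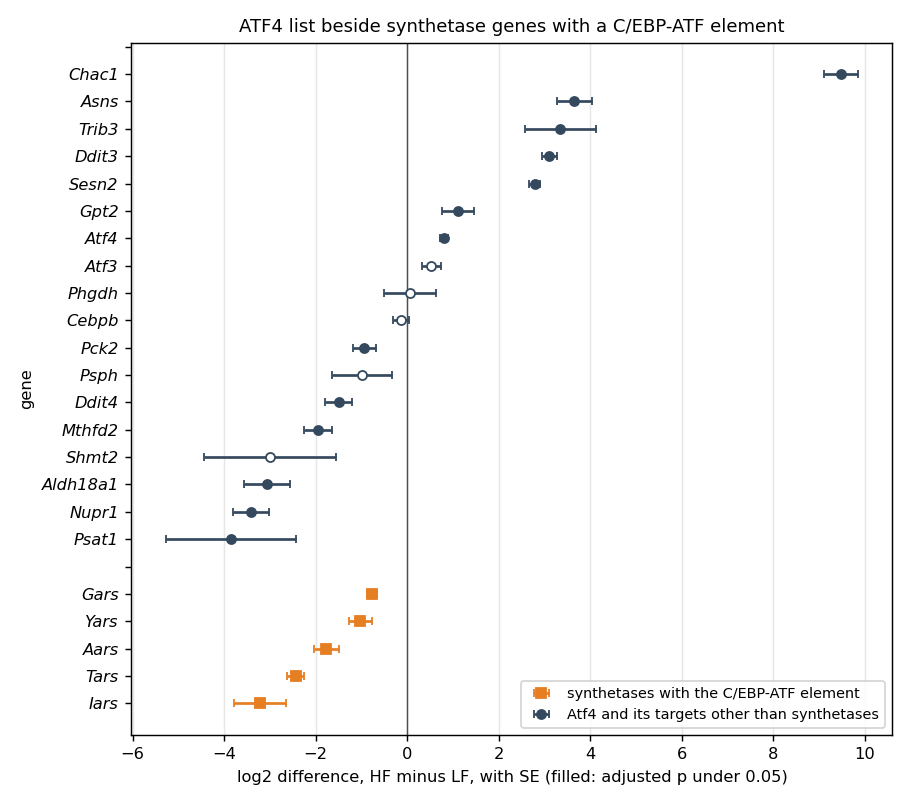
Log2 difference (HF minus LF, with SE) of 18 tested genes of the ATF4 list (circles) and the 5 synthetase genes with a C/EBP-ATF element in the promoter window (squares), filled where the limma adjusted p was under 0.05. The list runs from Psat1 at -3.85 to Chac1 at 9.48, and the 5 squares lie between -3.22 and -0.77.

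Amino acid transporters were mostly lower, 10 of 13 tested, with 2 higher (median -1.74), beside 28.7% and 26.2% of all genes. Slc7a11, the cystine importer, was at 5827.3, 11094.2, 5747.3 and 7625.0 in HF and at 99.6, 151.6 and 279.5 in the libraries labelled LF, widely apart (log2 difference 5.49, limma adjusted p = 7.31e-06). Slc38a2, a carrier of small neutral amino acids, was higher by 1.03 and Slc1a5, a glutamine carrier, lower by -2.07. Of 18 genes of amino acid sensing by mTORC1, 5 were higher and 7 lower (median -0.13), which is near the shares of all genes (26.2% and 28.7%). The higher count was 3 with no filter, with no trend or without LF8 and 2 with equal library totals or without LF6 or LF7, and the lower count was 4 without LF6 and 3 without LF7. Castor1, an arginine sensor, was at 1.76 and Lamtor5 at -0.56. Rragc did not pass (0.14). Of 5 genes tied to the GAIT complex, in which the Eprs protein represses translation, 1 was higher (Gapdh, 1.29). Lower were 2 (Syncrip, -1.65, and Rpl13a, -1.82), and 4 with equal library totals. The shares of all genes were 26.2% higher and 28.7% lower. Gapdh and Rpl13a have many processed copies in the genome, so their counts are uncertain.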

How the data were processed

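TRIzol LS extraction and a SMART-Seq library kit are recorded in the labels' protocols. DESeq2 1.20.0, STAR 2.6.1b and featureCounts 1.6.3 appear in the submitters' processing notes without their roles. Build, annotation and strand setting: not given in the sources used here. The deposited table holds normalized counts, a signal of reads divided by 1 size factor per library. All values (100%, within 0.01) were whole multiples of 1 read, so reads were recovered: 13943173 to 16599658 in each HF library, 16974428 to 18983351 in each of the others. The authors' own log2 fold changes, test score and p-values stand beside them, per the file headers, and are not used in the text. The labels number the LF samples 1 to 3, but the columns are LF6, LF7 and LF8, and these are used as names only. There were 0 unmapped columns.

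Testing used limma 3.58.1 (R 4.3.3, trend=TRUE) on log2(normalized count + 1) of genes whose mean reached 10, over all 7 libraries, Benjamini-Hochberg over 14936 genes, threshold 0.05. A fold change on this scale understates the change of low genes, except where zeros in some libraries enlarge it. The 36 genes and the lists were chosen with earlier results of these data known. The motifs were chosen after the promoters were seen. Nothing says whether each library is 1 mouse, although the design text counts 4 and 3 mice, so p-values cover only the spread among these libraries. Values of every library are given for the 8 largest and 4 smallest differences, for pairs of opposite sign (Cars, Lars and Nars with their mitochondrial partners), and for Gars, Kars, Eprs and Wars. From each list of related functions, the member of highest mean and up to 3 of lowest p are named. Of the other listed genes named, Atf4, Asns, Mthfd2, Aldh18a1, Psat1, Gpt2, Phgdh, Psph, Shmt2 and Ppp1r15a, and Marco in the cell type lists, were chosen after their values were seen, as were the values of Tars by library.

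Other settings tried were quantile normalization, equal library totals, a pseudocount of 0.5 or 5, a filter at a mean of 50 or none, array weights, a fit without trend, a robust prior, and omission of each library. Added after seeing the data were edgeR 4.0.16 (the authors' size factors, and TMM) and DESeq2 1.42.0 on the recovered reads. The fits were tested on simulated data with few genes changed and the same spread in both groups. Here 55.0% of genes were called, and the median coefficient of variation was 34.0% in HF and 11.6% in LF. The simulation therefore cannot show how the fits behave on these data. Sequences are from RefSeq (GRCm38.p6), and lengths, overlaps and shared stretches from GENCODE M21, which need not be the authors' annotation. Figures used matplotlib 3.10.9.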

Additional observations from a re-analysis of the deposited data

Results flagged for a closer look

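In 2 of 36 sets of 4 HF libraries, 1 library lay far from the other 3, relative to the whole range of the set. Chance gives about 1 in 20, so this count is near that rate. The sets share the same 4 libraries and are not independent. Fars2 was at 0 in HF replicate 3 and at 79.5 to 87.4 in the others, a gap of 0.91 of the range. Lars was at 671.1 in HF replicate 2 and at 581.9 to 588.8 in the others, a gap of 0.923 of a narrow range.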

How the results depend on the processing

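No paired analysis was possible because HF and LF are groups of different mice, and nothing links an HF library to an LF library. The replicate number could not be used as a block either. The LF columns carry the numbers 6, 7 and 8, which match no replicate number of the HF group. Of the settings tried for the 36 genes, 595 comparisons kept direction and side of the threshold, 56 lost the call, 21 gained one and 10 changed sign. The count of cytosolic genes lower in HF was 12 with quantile normalization, 18 with equal library totals and 14 to 17 with 1 library left out. The count of cytosolic genes higher in HF, 1 in the main analysis, was 0 with no filter, with equal library totals, with no trend and with edgeR under the authors' size factors or TMM, and 0 to 1 with 1 library left out. Without HF replicate 4 the 1 gene was Nars, not Cars. The count of mitochondrial genes lower in HF was 10. It was 6 with edgeR under the authors' size factors and 6 under TMM, and 3 to 11 with 1 library left out. The count of mitochondrial genes higher was 0, and 0 to 1 with 1 library left out, the 1 being Lars2. The gap between the classes was -0.71 by summed counts, against 1.32 by mean log2 levels, and 0.99 to 1.48 with 1 library left out.

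Signs changed for Cars (-0.006 with equal library totals), Nars (-0.342 and -0.232 with equal library totals and quantile normalization), Lars2 (-0.286 and -0.56, likewise), Cars2 (0.137 with quantile normalization), Mars2 (-0.946 to 0.65 with 1 library left out, the highest without HF replicate 1, 0.26 and 0.232 with edgeR under the authors' size factors and TMM, and 0.274 with DESeq2), Cebpb (-0.28 to 0.013 with 1 library left out, the highest without HF replicate 4) and Rragc (-0.376 and -0.211 with equal library totals and quantile normalization). None of these passed the threshold in the main analysis except Cars. The causes were not tested. Depth limits the mitochondrial class: Ears2 and Pars2 rest on 16 and 20 reads over the HF libraries, and a 0 in 1 of them was not told apart from a low level.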
